A study of Mus musculus with 8 samples.

Results

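The Zic and septal genes examined here were *Zic1*, *Zic2*, *Zic4*, *Zic5*, *Isl1*, *Ecel1* and *Lhx8*, 7 genes chosen by name, of which 6 had a value in the table of 15039 genes. *Lhx8* had none and was not analysed here. RNA was sequenced from the prefrontal cortex (PFC) of 4 Rnf146-overexpressing mice and 4 eGFP-overexpressing control mice, all wild-type male C57BL/6NCrljOri mice. The Rnf146-overexpressing mice had received AAV2/1-hsyn-RNF146-eGFP in the PFC of both hemispheres at 6 weeks of age, the control mice AAV2/1-hsyn-eGFP, and the PFC was dissected 4 weeks later. Both vectors used the human synapsin promoter, which is active in neurons, so the transgene was meant for neurons while the RNA came from all cells of the dissected tissue. The Rnf146-overexpressing mice that were sequenced had been picked for overexpression and for social deficits, per the study's text. Replicate numbers 1 to 4 in the labels gave 4 pairs of 1 Rnf146 and 1 eGFP library.

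The Zic proteins are zinc finger transcription factors that are related to the Gli proteins and act in the patterning of the early nervous system, the meninges and the medial forebrain. In the adult forebrain, Zic expression is known from the septum, and *Isl1* and *Lhx8* encode LIM-homeodomain factors that help to specify cholinergic neurons of the basal forebrain. *Ecel1* encodes a membrane protein of the neprilysin family of peptidases that neurons need for the innervation of muscle. RNF146 is a ubiquitin ligase that recognizes PARylated proteins such as Axin.

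All 6 measured genes were higher in the Rnf146-overexpressing mice in each of the 4 pairs. Their mean difference on the deposited log2 scale was 0.61 ± 0.17 (SD, n = 4 pairs). The genes were selected with the results of this comparison known, so their values are a description without a test and their common direction follows from the selection. For reference, 10.4% of all genes were higher in all 4 pairs, and limma called 0.818% higher, with 0.1 as the limit for the adjusted p, beside 6 of 6 of these genes on both counts, which restate the selection. A share of 0.432% of all genes was called lower.

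The overexpressed gene itself was checked first. The *Rnf146* values of the 2 groups did not overlap, with pair differences between 2.51 and 2.82 on the deposited log2 scale (limma fit with pairs as blocks, adjusted p = 3.2e-07). In all, 188 of 15039 genes were called, 123 higher and 65 lower in Rnf146-overexpressing mice. The median difference of all genes was 0.00, as normalized values are set to have, so the values cannot show a shift shared by most genes. The number of called genes rested on single pairs, with 421 without pair 1, 42 without pair 2 and 14 without pair 4.

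Each deposited value is a log2 value centred within its pair, so that the 2 values of a gene add up to the same number in every pair. A gene therefore carries 4 independent differences, and the groups do not overlap exactly when all 4 differences have the same sign. The log2 scale also compresses changes of genes with low counts. On the fitted curve, a doubling of the count moves the value by less for genes with few reads than for genes with many. The differences of the 6 genes, and of the called markers where the scales part most, are therefore given on the deposited scale and again in log2 normalized counts, to which they were transformed back. All other differences are on the deposited scale, where sizes are not comparable between genes of low and high counts. No library totals can be had from such values, so the depth is unknown.

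The genomic settings of the genes came from the GENCODE annotation of GRCm39. *Zic1* (chromosome 9, 91240111 to 91247863, minus strand) and *Zic4* (chromosome 9, 91244149 to 91271402, plus strand) lie on opposite strands with annotated spans that overlap by 3715 bases. *Zic5* (chromosome 14, 122694190 to 122703089, minus strand) and *Zic2* (chromosome 14, 122711827 to 122717264, plus strand) lie head to head, with starts 8738 bases apart. *Isl1* lies on chromosome 13 (116434817 to 116446235, minus strand), *Ecel1* on chromosome 1 (87075377 to 87084243, minus strand) and *Lhx8* on chromosome 3 (154011931 to 154036296, minus strand). The 6 measured genes thus sit at 4 places in the genome, and 4 of them belong to the 2 Zic pairs. *Zic2*, *Zic4*, *Zic5* and *Ecel1* also overlap annotated noncoding genes or unclassified transcripts on the opposite strand, none of them in the table. The library kit kept strand, but whether the quantification used it is not given in the sources used here, so reads of overlapping stretches may be shared.

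Because these genes were higher together, the 250 bases before their RefSeq starts were read from the RefSeq promoter table (GRCm38.p6), which held 6 of the 7 genes. At these RefSeq starts, *Zic1* and *Zic4* point away from each other without overlap, unlike their GENCODE spans above. The sequences therefore need not lie just before the GENCODE starts. *Zic2* had no entry. The sequences of the neighbours *Zic1* and *Zic4* and of the unlinked genes *Isl1* and *Ecel1* are shown 5′ to 3′ on the strand of the gene, at chr9:91365769-91366018 (minus strand), chr9:91368722-91368971 (plus strand), chr13:116309689-116309938 (minus strand) and chr1:87156357-87156606 (minus strand). Capitals mark matches on either strand to CCAAT, the box bound by NF-Y, to GGGCGG, the GC box bound by Sp1, or to TAAT, the core that many homeodomain proteins bind.
*Zic1*: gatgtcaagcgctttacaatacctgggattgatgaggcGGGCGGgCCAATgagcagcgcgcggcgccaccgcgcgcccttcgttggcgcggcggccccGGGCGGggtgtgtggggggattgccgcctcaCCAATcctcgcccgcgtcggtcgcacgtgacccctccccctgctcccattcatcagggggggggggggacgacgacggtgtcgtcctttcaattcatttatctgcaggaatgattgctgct
*Zic4*: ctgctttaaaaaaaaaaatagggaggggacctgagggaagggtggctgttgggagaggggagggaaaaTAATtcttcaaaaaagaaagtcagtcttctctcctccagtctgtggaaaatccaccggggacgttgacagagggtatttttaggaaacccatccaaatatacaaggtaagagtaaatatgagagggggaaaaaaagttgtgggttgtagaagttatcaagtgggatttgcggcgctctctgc
*Isl1*: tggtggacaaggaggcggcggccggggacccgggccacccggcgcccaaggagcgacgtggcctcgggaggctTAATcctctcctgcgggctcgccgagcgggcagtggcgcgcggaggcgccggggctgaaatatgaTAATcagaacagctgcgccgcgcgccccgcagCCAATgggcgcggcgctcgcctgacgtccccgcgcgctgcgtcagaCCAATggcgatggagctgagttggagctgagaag
*Ecel1*: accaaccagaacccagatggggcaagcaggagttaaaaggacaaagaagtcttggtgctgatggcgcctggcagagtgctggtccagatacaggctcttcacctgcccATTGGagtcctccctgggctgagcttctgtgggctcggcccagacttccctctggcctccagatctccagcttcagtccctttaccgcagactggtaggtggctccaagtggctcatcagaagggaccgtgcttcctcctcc

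The promoters did not share 1 composition. Their GC content was 66.0% for *Zic1*, 44.4% for *Zic4*, 62.4% for *Zic5*, 71.2% for *Isl1*, 58.4% for *Ecel1* and 46.0% for *Lhx8*, with a median of 52.4% over all 32851 promoters of the same length. *Zic1* held 2 CCAAT boxes, whose first bases lie 205 and 121 bases before the start, and 2 GC boxes. *Isl1* held 2 CCAAT boxes at 80 and 34 bases and 2 TAAT cores at 177 and 112 bases. *Ecel1* held 1 CCAAT box, on the opposite strand at 142 bases, where its letters read as the reverse complement, and *Zic4* held only 1 TAAT core at 182 bases. *Zic5* and *Lhx8* held none of the 3 motifs.

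These motifs are common, and a match describes letters only. CCAAT occurred in 33.8% of the 32851 promoters, GGGCGG in 32.7% and TAAT in 54.9%. CCTGCTG, which occurs in a binding motif of Zic proteins, was in 8.44% of all promoters and TATAAA, the TATA box, in 12.4%. Neither was found in any of the 6 windows searched.

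*Zic1* had rank 3 of 15039 genes by mean increase on the deposited scale and rank 29 in log2 normalized counts. Its deposited log2 values were 10.65, 10.40, 10.86 and 10.60 in eGFP libraries 1 to 4 and 11.59, 11.84, 11.38 and 11.64 in Rnf146 libraries 1 to 4. The lowest Rnf146 library lay 0.52 above the highest eGFP library, and both belonged to pair 3. The pair differences were 0.94, 1.44, 0.52 and 1.04, a mean of 0.99 ± 0.37 (SD, n = 4 pairs). After transformation to log2 normalized counts the mean was 1.19 ± 0.46, a 2.28-fold higher count.

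*Zic4*, which shares the locus with *Zic1*, showed the smallest difference of the 6 genes. Its values were 9.27, 9.30, 9.46 and 9.33 in the eGFP libraries and 9.75, 9.72, 9.56 and 9.70 in the Rnf146 libraries. The groups did not overlap, although in pair 3 the 2 libraries lay only 0.11 apart. The pair differences of 0.47, 0.42, 0.11 and 0.37 gave a mean of 0.34 ± 0.16, or 0.61 ± 0.29 in log2 normalized counts (SD, n = 4 pairs). The difference of *Zic1* exceeded that of *Zic4* in all 4 pairs, by 0.64 ± 0.27 on the deposited scale and by 0.58 ± 0.31 in log2 normalized counts.

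*Zic2*, the factor known for its role in the growth of the forebrain midline and in axon crossing, had values of 9.24, 9.32, 9.41 and 9.29 in the eGFP libraries and 9.92, 9.84, 9.75 and 9.87 in the Rnf146 libraries. Pair 3 was again the closest, and pair 1 the farthest apart. The pair differences were 0.68, 0.51, 0.33 and 0.59, and their mean was 0.53 ± 0.15 (SD, n = 4 pairs). In log2 normalized counts the mean was 0.92 ± 0.26, a 1.89-fold higher count.

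*Zic5*, the neighbour of *Zic2*, had values of 8.92, 8.82, 8.94 and 8.89 in the eGFP libraries and 9.38, 9.48, 9.36 and 9.41 in the Rnf146 libraries. Its 4 differences of 0.46, 0.65, 0.41 and 0.51 varied the least among the 6 genes and averaged 0.51 ± 0.10 (SD, n = 4 pairs). The mean in log2 normalized counts was 1.09 ± 0.23. The differences of *Zic2* and *Zic5* could not be ordered, since *Zic2* was ahead by 0.02 ± 0.16 on the deposited scale and behind by 0.17 ± 0.31 after transformation.

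**Figure D1:**
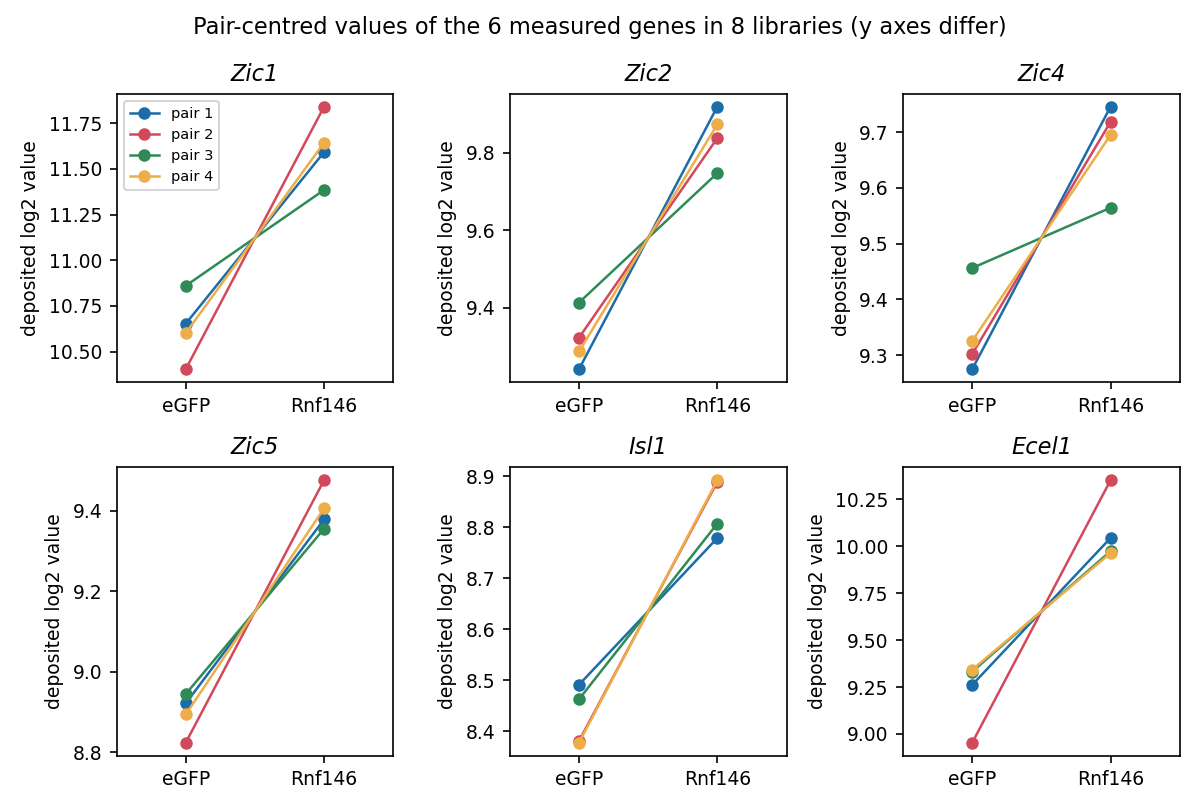
Deposited log2 values (y axis, pair-centred, a separate range in each panel) of the 6 measured genes in eGFP and Rnf146 libraries (x axis), with a line for each of the 4 pairs. Every line goes up from eGFP to Rnf146, and the line of pair 3 is the flattest for *Zic1*, *Zic2*, *Zic4* and *Zic5*. The lines cross at 1 point because the values were centred within pairs.

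*Isl1* had the lowest values of the 6 genes on the deposited scale, 8.49, 8.38, 8.46 and 8.38 in the eGFP libraries and 8.78, 8.89, 8.81 and 8.89 in the Rnf146 libraries. Its mean value lay only 0.95 above the 7.68 that a count of 0 gives on the fitted curve, while that of *Zic1* lay 3.44 above it, so *Isl1* was in the range where changes are compressed most. The pair differences were 0.29, 0.51, 0.34 and 0.51, and their mean was 0.41 ± 0.12 (SD, n = 4 pairs). In log2 normalized counts the mean became 1.31 ± 0.38, a 2.48-fold higher count that rests on low values.

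*Ecel1* had rank 5 of 15039 genes by mean increase on the deposited scale and rank 10 in log2 normalized counts. Its values were 9.26, 8.95, 9.33 and 9.34 in the eGFP libraries and 10.04, 10.35, 9.97 and 9.96 in the Rnf146 libraries. Pair 2 stood apart with a difference of 1.40, against 0.78, 0.64 and 0.62 in pairs 1, 3 and 4. The mean was 0.86 ± 0.37 on the deposited scale and 1.48 ± 0.65 in log2 normalized counts (SD, n = 4 pairs). Without pair 2 the mean on the deposited scale was 0.68.

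The order of the 6 genes by difference depended on the scale. On the deposited scale it was *Zic1*, *Ecel1*, *Zic2*, *Zic5*, *Isl1* and *Zic4*, and in log2 normalized counts *Ecel1*, *Isl1*, *Zic1*, *Zic5*, *Zic2* and *Zic4*. *Zic4* was last on both. Most neighbours in these orders lay within the spread between pairs. On the deposited scale, the gap of each gene to the next was below its own SD for *Zic1* over *Ecel1* (0.12 ± 0.23), *Ecel1* over *Zic2* (0.33 ± 0.38, though above 0 in 4 of 4 pairs), *Zic2* over *Zic5* and *Isl1* over *Zic4* (0.07 ± 0.18), and slightly above it for *Zic5* over *Isl1* (0.09 ± 0.08, in 3 of 4 pairs). In log2 normalized counts, only the gap of *Zic2* over *Zic4* exceeded its spread, at 0.31 ± 0.11 and in 4 of 4 pairs.

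**Figure D2:**
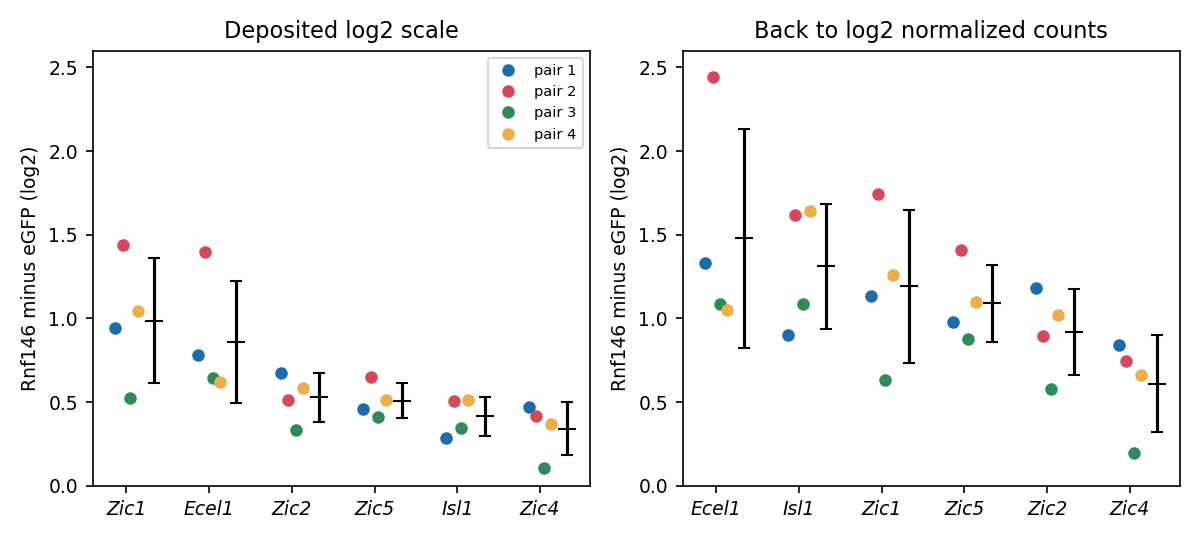
Difference between the Rnf146 and the eGFP library of each pair (y axis, log2) for the 6 genes (x axis, ordered by mean), on the deposited scale at left and in log2 normalized counts at right. Points are pairs and the bar at the right of each gene is the mean ± SD of 4 pairs. *Isl1* stands next to last at left and next to the top at right, and *Zic4* is last in both.

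The 6 genes did not vary in step across the pairs. Averaged over the 6 genes, the difference was 0.60, 0.82, 0.39 and 0.61 in pairs 1 to 4. Pair 2 held the largest difference for *Zic1*, *Zic5* and *Ecel1*, pair 1 for *Zic2* and *Zic4*, and pair 4 for *Isl1*. The 4 Zic genes had their smallest difference in pair 3, *Isl1* in pair 1 and *Ecel1* in pair 4. When single pairs were left out, the average stayed between 0.53 and 0.68, and all 24 differences of single genes stayed above 0.

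The nearest measured genes on either side were closer to 0 than the 6 genes, but many lay far away. *Gm5089*, 5.6 kb from *Zic5*, differed by 0.04 ± 0.09, and *Pcca*, a subunit of propionyl-CoA carboxylase 54.3 kb from *Zic2*, by 0.06 ± 0.20 (SD, n = 4 pairs). *Tbc1d2b*, 1087.3 kb from *Zic1*, and *Plscr1*, 860.4 kb from *Zic4*, differed by 0.17 ± 0.05 and 0.11 ± 0.04 (adjusted p = 0.193 and 0.330 from limma). *Itga1* and *4930435F18Rik*, 1196.1 and 492.4 kb from *Isl1*, differed by 0.01 and -0.03. *Dis3l2* and *Eif4e2*, 97.6 and 57.4 kb from *Ecel1*, differed by 0.02 and -0.11. None of these 8 neighbours was called.

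Genes related to *Isl1* and *Ecel1* gave no calls with all 4 pairs. The lists named here and below were drawn up with earlier results of these libraries known. Of 16 other LIM-homeodomain factors, LIM-only proteins and cofactors, 8 were measured, with a median difference of -0.09 and 0 called by limma. The values farthest from 0 were those of *Lmo2* (0.19 ± 0.05) and *Lmo4* (-0.19 ± 0.14), both LIM-only proteins that bind the same cofactors as LIM-homeodomain factors. Of the 6 other peptidases of the neprilysin family, 3 were measured and 0 were called with all pairs, while 1 was called without pair 3. *Ece2*, an endothelin-converting enzyme, differed by 0.32 ± 0.21 and *Mme*, neprilysin itself, by 0.28 ± 0.46 (adjusted p = 0.135 and 0.483 from limma).

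Markers of the septum were higher with the Zic genes. Of 6 genes known from the lateral septum, 5 were measured and 4 were called, all higher, with a median difference of 0.50. *Trpc4*, a cation channel, rose by 0.53 ± 0.17, *Prdm12*, a transcription factor, by 0.50 ± 0.08, and the neuropeptide gene *Nts* by 0.50 ± 0.13 (SD, n = 4 pairs, adjusted p = 0.018, 0.0072 and 0.015 from limma). *Cartpt*, which encodes another neuropeptide, rose by 0.27 ± 0.13 (adjusted p = 0.095 from limma). The rise in log2 normalized counts was 0.77 ± 0.24 for *Trpc4*, 1.35 ± 0.23 for *Prdm12*, 1.41 ± 0.39 for *Nts* and 0.83 ± 0.40 for *Cartpt*. The mean values of *Prdm12* (8.80), *Nts* (8.76) and *Cartpt* (8.66) lay near the 7.68 that a count of 0 gives, so their rises rest on low values. That of *Trpc4* was 10.13. The fifth gene, *Crhr2*, was not called and was added to the text after its value was seen. It differed by 0.23 ± 0.24 (adjusted p = 0.309 from limma). All 6 genes of this list, the called ones included, were chosen with earlier results of these libraries known.

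Averaged over the 5 septal markers, the difference was 0.43, 0.45, 0.29 and 0.44 in pairs 1 to 4, lowest in pair 3 like the 4 Zic genes. This was not particular to the septal markers. Pair 3 was also lowest for the lists below of cholinergic neurons (0.25), ventral factors (0.14), ependyma (0.14), choroid plexus (0.21), thalamus (-0.01) and olfactory bulb (-0.36). It was not lowest for the striatal, oligodendrocyte, interneuron, leptomeningeal and cortical excitatory lists. The averaged level of the septal markers ran from 8.75 to 8.83 in the eGFP libraries and from 9.12 to 9.20 in the Rnf146 libraries. The number of called genes was 3, 4, 3 and 2 without pair 1, 2, 3 and 4.

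The identity of the group as basal forebrain genes could be checked only in part. Of 7 markers of cholinergic neurons of the basal forebrain, 2 were measured. The others, such as *Chat*, *Slc18a3*, *Slc10a4* and *Gbx1*, had no value and were not analysed here. The 2 measured genes were both called with all 4 pairs. *Slc5a7*, the choline transporter, rose by 0.51 ± 0.27, and *Ngfr*, the low-affinity neurotrophin receptor, by 0.39 ± 0.21 (adjusted p = 0.065 and 0.070 from limma). After transformation, which undoes the compression of low values, these were 1.32 ± 0.73 and 1.54 ± 0.83. The mean values of *Slc5a7* (8.88) and *Ngfr* (8.45) lay near the 7.68 that a count of 0 gives, so both rises rest on low values. Neither was called without pair 2 or without pair 4, and 1 was called without pair 3. In bulk tissue, a change in the number of cells of a type and a change in RNA per cell cannot be told apart.

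Transcription factors of the ventral telencephalon, from which septal and basal forebrain neurons arise, were higher in part. Of 14 factors, 11 were measured, 4 were called, all higher, and 8 were higher in all 4 pairs, with a median difference of 0.20. *Six3*, a homeobox gene of the anterior forebrain, rose by 0.64 ± 0.22 and *Sp9*, a zinc finger factor of GABAergic precursors, by 0.39 ± 0.08 (adjusted p = 0.016 and 0.018 from limma). *Dlx1* and *Dlx6*, homeobox genes of GABAergic neurons, rose by 0.37 ± 0.11 and 0.34 ± 0.18 (adjusted p = 0.029 and 0.092 from limma). After transformation to log2 normalized counts, *Six3* rose by 1.70 ± 0.61, *Sp9* by 0.86 ± 0.18, *Dlx1* by 0.50 ± 0.15 and *Dlx6* by 0.78 ± 0.43. The mean value of *Six3* was 8.85, so its rise rests on low values. The number of called factors was 3 without pair 1, 1 without pair 2, 4 without pair 3 and 0 without pair 4.

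**Figure D3:**
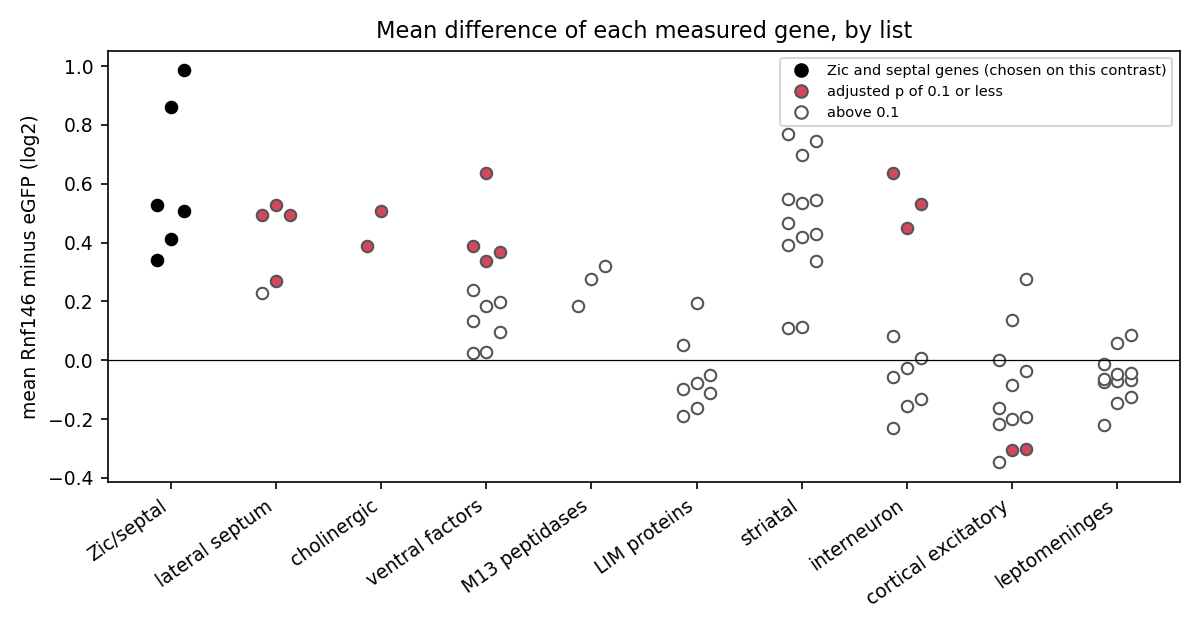
Mean difference between Rnf146 and eGFP libraries over 4 pairs (y axis, log2, deposited scale) of each measured gene, by list (x axis), with filled red circles for called genes (adjusted p up to 0.1), open circles for the others and black circles for the 6 Zic and septal genes, which were chosen on this comparison and are shown without calls. Among the lists shown, filled circles above 0 stand in those of the lateral septum, cholinergic neurons, ventral factors and GABAergic interneurons. The 2 below 0 stand in that of cortical excitatory neurons. Not all lists are shown, and those left out include ependyma, choroid plexus and thalamus, where *Foxj1*, *Clic6* and *Prkcd* were also called higher.

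Markers of other regions and cell types were read in the same pairs, and their part in the differences of the Zic genes was not tested. The 13 striatal markers had a median difference of 0.47 but 0 calls by limma, since they averaged -0.08, 1.12, 0.61 and 0.23 in pairs 1 to 4. *Penk* and *Drd2*, the opioid peptide gene and the dopamine receptor gene of striatal neurons, differed by 0.77 ± 0.80 and 0.74 ± 0.54, and 6 of the 13 were called without pair 1. The 8 oligodendrocyte markers, such as *Mbp* (0.51 ± 0.58), averaged -0.13, 0.47, 0.90 and 0.55, with 0 called in the 4 pairs and 8 without pair 1. Of the 13 striatal markers, 5 were nevertheless higher in all 4 pairs, and of the 8 oligodendrocyte markers 0 were. In pair 1, where both lists averaged below 0, the 6 Zic and septal genes averaged 0.60 and the septal markers 0.43. Both of these groups of genes were chosen with results of these libraries known, so this contrast in pair 1 is a description without a test. The averaged level of the striatal list ran from 9.69 to 10.29 in the eGFP libraries and from 10.21 to 10.81 in the Rnf146 libraries, and that of the oligodendrocyte list from 11.93 to 12.45 and from 12.32 to 12.83.

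Cells of the meninges also express Zic genes. None of the 12 markers of leptomeningeal fibroblasts was called with all pairs, and their median difference was -0.06. The averaged level ran from 8.91 to 9.03 in the eGFP libraries and from 8.90 to 9.02 in the Rnf146 libraries. *Slc6a13*, a GABA transporter, differed by -0.22 ± 0.10 and *Igf2*, a growth factor, by -0.15 ± 0.36 (adjusted p = 0.134 and 0.667 from limma). The list averaged -0.11, -0.11, 0.11 and -0.13 in the 4 pairs, so its only value above 0 fell in pair 3, and 1 of its genes was called without pair 3. The part of meningeal cells in the differences of the Zic genes was not tested.

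Ependymal cells and choroid plexus line the ventricles next to the septum. Of 9 ependymal markers 4 were measured, with a median difference of 0.23, and 1 was called, the ciliary factor gene *Foxj1*, which rose by 0.32 ± 0.10 (adjusted p = 0.049 from limma). Its call was lost without pair 3 and without pair 4. The rise was 0.74 ± 0.24 in log2 normalized counts. Of 7 markers of the choroid plexus 2 were measured, and *Clic6*, a chloride channel gene, rose by 0.54 ± 0.05 (adjusted p = 0.0044 from limma), while *Ttr*, *Folr1*, *Kcne2*, *Slc4a5* and *Otx2* had no value. *Clic6* rose by 1.47 ± 0.13 in log2 normalized counts, but with a mean value of 8.81 its rise rests on low values. Of 7 markers of thalamus and habenula 5 were measured, with a median difference of 0.09, and the kinase gene *Prkcd* rose by 0.75 ± 0.17 (adjusted p = 0.0051 from limma, and at most 0.087 when any 1 pair was left out). Its rise in log2 normalized counts was 1.00 ± 0.23. Of 7 markers of olfactory bulb neurons, which also express Zic genes, 4 were measured and 0 were called by limma, with *Cdhr1* at -0.25 ± 0.44 and *Doc2g* at 0.05 ± 0.22.

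Of 10 markers of GABAergic interneurons 3 were called higher, and of 12 markers of cortical excitatory neurons 2 were called lower. *Gad2*, *Slc32a1* and *Gad1*, which synthesize and load GABA in cortical, septal and striatal neurons alike, rose by 0.64 ± 0.12, 0.53 ± 0.23 and 0.45 ± 0.14 (adjusted p = 0.0050, 0.032 and 0.019 from limma). The other 7 markers of the interneuron list, which name subtypes of the cortex, lay between -0.23 and 0.08 and were not called, and the median of the 10 was -0.01. Without pair 4, only 1 of the 10 was called. Among the excitatory markers, *Neurod2* and *Slc17a7* fell by 0.30 ± 0.13 and 0.30 ± 0.14 (adjusted p = 0.069 and 0.092 from limma), and the median was -0.18. The 12 did not all fall, as they lay between -0.35 and 0.28, with 5 lower and 0 higher in all 4 pairs. Neither was called without pair 4, when 0 of the 12 were called, nor without pair 2, and *Slc17a7* was not called without pair 1.

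**Figure D4:**
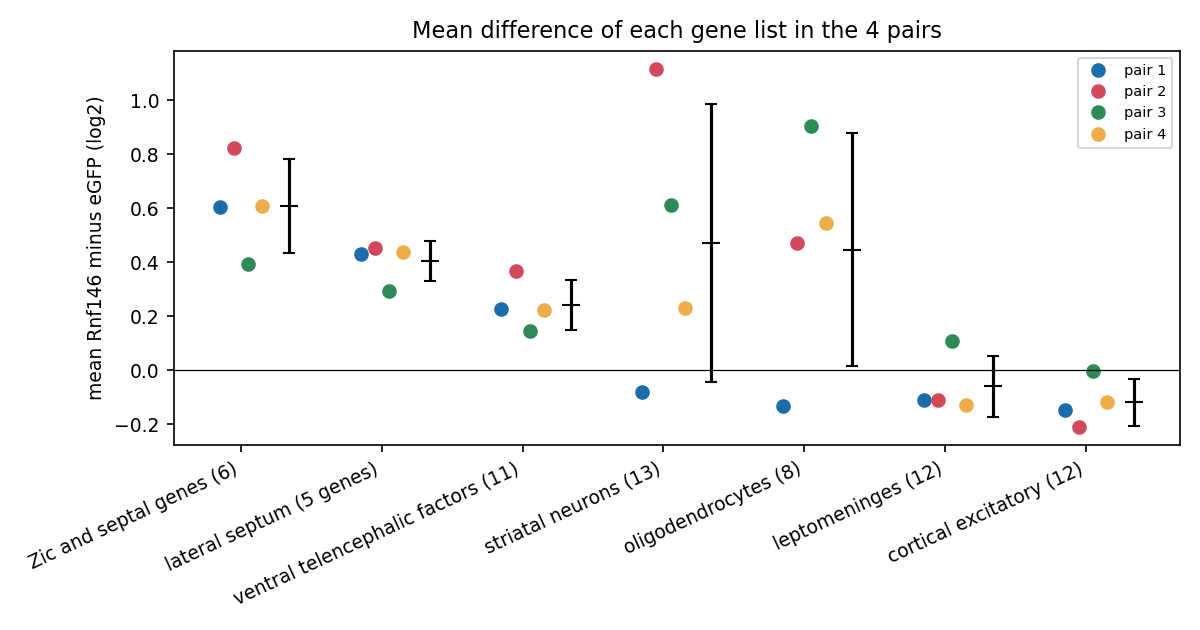
Mean difference between Rnf146 and eGFP libraries (y axis, log2, deposited scale) of the 6 Zic and septal genes and of 6 lists of markers (x axis, number of measured genes in brackets), with a point for each of the 4 pairs and the mean ± SD at the right of each list. The Zic and septal genes and the septal markers are above 0 in all 4 pairs, the striatal and oligodendrocyte lists are below 0 in pair 1, and the leptomeningeal list is above 0 only in pair 3.

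To find genes with a like profile, the 4 pair differences of each of 14928 genes outside the 6 genes and the lists were compared with the average of the 6 genes, and the root mean square distance over the 4 pairs was taken. Over all these genes the median distance was 0.631. Of the 6 genes themselves, *Zic5* was closest to their average (0.121) and *Zic1* farthest (0.418), since its differences were larger. Among the genes of the lists, *Trpc4* (0.090), *Gad2* (0.10) and *Slc32a1* (0.148) were as near as the 10 given here. These distances are on the deposited scale, where sizes are not comparable between genes of low and high counts. In log2 normalized counts *Trpc4*, *Gad2* and *Slc32a1* rose by 0.77, 0.67 and 0.63, against 1.10 for the average of the 6 genes. The nearest gene outside the lists was *Sox1ot*, a long noncoding RNA at the *Sox1* locus, with a distance of 0.078 and differences of 0.69, 0.72, 0.47 and 0.59. *Ano1*, a calcium-activated chloride channel, followed with 0.119 and differences of 0.66, 0.89, 0.21 and 0.73, and *Ret*, a receptor tyrosine kinase, with 0.125 and differences of 0.45, 0.67, 0.27 and 0.61.

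The other 7 of the 10 nearest unlisted genes lay between 0.140 and 0.164. They included *Arhgap6*, a GTPase-activating protein, *Baiap3*, a protein of vesicle release, *Spock3*, an extracellular proteoglycan, *Gfra1*, a receptor for glial cell line-derived neurotrophic factor, *Ano2*, another chloride channel, and *Usp29*, a deubiquitinase. Their mean differences ran from 0.47 for *Usp29* to 0.74 for *Arhgap6*. All 10 were found by their likeness in these 4 pairs, so the values are a description without a test.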

How the data were processed

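PFC RNA of 4 mice per group was sequenced with a stranded mRNA kit. The authors used Cutadapt for trimming and Salmon 1.9.0 for quantification against GENCODE vM30 (GRCm39). The submitters' processing notes also name DESeq2 and DESeq. The table deposited by the authors is called normalized counts, but it holds log2 values between 7.86 and 18.8 and had been centred within same-numbered pairs (largest spread of the pair sums 1.4e-13). Normalization and centring are not described in the sources used here, no counts were used, and depth and counting precision are unknown.

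Groups and replicate numbers came from the sample labels. The 15039 genes entered 1 limma fit (version 3.58.1, R 4.3.3, eBayes with trend) with the replicate number as a block, since 8 centred values hold 4 independent differences. The centring fixes the deviations of paired libraries as mirror images, so the pairing could not be checked from the values. The labels do not tie paired mice to a litter, day or batch. Genes were called at a Benjamini-Hochberg adjusted p of 0.1 or less, and p-values measure only the spread between these pairs. The values were also back-transformed to log2 normalized counts (offset 0.5) on a variance-stabilizing curve fitted to mean counts of 294 genes in the study's supplement (median absolute residual 0.0086, largest 0.538). Those mean counts served as input only.

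The members and gene lists were chosen with earlier results of these data known. The genes named are the members, the called genes of each list or otherwise up to 2 with the largest absolute difference, the 10 genes nearest to the mean profile, and the measured neighbours on either side. A few results that fall under this rule are not reported here. Lists were described by counts and medians, with no test of a list. Alternatives were median centring, quantile normalization, no block, a minimum mean value of 9, an untrended variance, an adjusted p of 0.05, the back-transformed scale, each pair left out, the median over members, and members without *Zic4* and *Zic5*. Fits were tested on simulated data. Coordinates are from GENCODE vM39 (GRCm39), and promoters from RefSeq (GRCm38.p6). Python 3.11.15 with numpy 2.4.6, pandas 2.3.3 and matplotlib 3.10.9 was used for the remaining steps.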

Additional observations from a re-analysis of the deposited data

Results flagged for a closer look

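In each case below, 1 of the 4 pair differences stood apart from the others, judged by its gap to the nearest other difference as a share of the range of all 4 (Dixon's criterion). Of 51 sets of 4 differences checked, 7 were flagged, and chance alone flags about 5% of such sets. The share was 0.874 for the average of the lateral septum markers, where pair 3 was low at 0.29 against 0.43 to 0.45. It was 0.929 for the leptomeningeal markers, where pair 3 was high at 0.11 against -0.13 to -0.11. The 2 measured choroid plexus markers gave 0.849, with pair 1 high at 0.32 against 0.21 to 0.23.

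Among single genes, *Sp9* gave 0.832, with pair 3 low at 0.27 against 0.42 to 0.45. *Prdm12* gave 0.912, with pair 1 low at 0.37 against 0.53 to 0.54. *Prkcd* gave 0.863, with pair 3 low at 0.49 against 0.80 to 0.85, and *Baiap3* gave 0.857, with pair 3 low at 0.37 against 0.80 to 0.87. None of the 6 measured Zic and septal genes was flagged in this way.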

How the results depend on the processing

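The mean difference of the 6 Zic and septal genes stayed at 0.61 with median centring and at 0.60 with quantile normalization. It was 0.52 as a median over the genes, 0.70 without *Zic4* and *Zic5* and 0.53 to 0.68 with a pair left out, but 1.10 in log2 normalized counts, where low values are no longer compressed. The number of called genes, 188 in the main test, was 147 to 201 with median centring, quantile normalization, an untrended variance, the back-transformed scale and a minimum mean of 9. It was 80 at an adjusted p of 0.05, and ran from 14 to 421 with a pair left out. Without the replicate block it was 3226, because centred pairs are then counted as independent libraries. Of the genes in the lists, 19 were called, against 12 at an adjusted p of 0.05, 11 of those with a mean value of at least 9, 59 without the replicate block and 5 to 32 with a pair left out. Genes higher in all 4 pairs numbered 1568, 1627 with median centring and 1456 with quantile normalization. The 4 pairs limit what can be shown, and the depth is unknown. The values of *Isl1*, *Slc5a7*, *Ngfr*, *Prdm12*, *Nts*, *Cartpt*, *Six3* and *Clic6*, among others, lie where the deposited scale compresses changes.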
